A study of Mus musculus with 6 samples.

Results

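Neutrophil granule genes were defined as 9 genes: Mpo, Elane, Prtn3, Ltf, Ngp, Camp, Retnlg, Chil3 and Csf3r. Every probe set whose platform annotation gives exactly 1 symbol among them was taken, whatever its values. This gave 8 probe sets for 8 genes out of 22626 probe sets analysed. Retnlg had no probe set named with its symbol alone and was not analysed here. The livers came from 6 male KK/H1J mice, an inbred strain with polygenic obesity and type 2 diabetes, aged 12 to 14 weeks and weighing about 35 g. The 3 BPD mice (23, 28 and 36) had been injected through the tail vein with an adenovirus carrying bisphosphatase-deficient PFK-2/FBPase-2, an enzyme form that makes fructose 2,6-bisphosphate but does not break it down. The 3 GFP mice (22, 29 and 31) had received a control adenovirus at the same stated dose. All livers were taken 7 days later, and RNA of each was hybridised to its own array, so that all 6 mice carried an adenovirus and no uninfected liver was compared. The promoter driving the transgenes is not given in the sources used here.

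Neutrophils fill their granules in a fixed order while they mature in the marrow. Promyelocytes, which still divide, make the azurophil granules with myeloperoxidase and serine proteases. Later stages, which have stopped dividing or are about to, make the specific and gelatinase granules with lactoferrin and cathelicidin, and most granule transcripts are lost again in mature blood neutrophils. In a healthy adult mouse liver these transcripts are scarce. In RNA from a whole piece of liver, a change in the number of such cells and a change in RNA per cell cannot be told apart.

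Promoter sequence is shown because the early and the late genes are known to be driven by partly different factors. RefSeq promoters (build GRCm38.p6) matched all 9 genes. The 250 bases before each start were searched on both strands for AGGAAGT, a core of the site of PU.1, for TTNNGCAA, a form of the C/EBP site, and for CAACGG, a core of the MYB site. These letters were chosen after the sequences and earlier results had been seen. Capitals mark the matches, and none of the matches overlap. The stretches run 5′ to 3′ up to the base before the start, except that of Mpo, which begins 250 bases and ends 101 bases before it.
Mpo, chr11:87793534-87793683, plus strand: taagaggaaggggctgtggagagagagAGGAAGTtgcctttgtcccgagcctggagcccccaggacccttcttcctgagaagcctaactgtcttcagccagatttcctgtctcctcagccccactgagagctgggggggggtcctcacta
Elane, chr10:79886162-79886311, plus strand: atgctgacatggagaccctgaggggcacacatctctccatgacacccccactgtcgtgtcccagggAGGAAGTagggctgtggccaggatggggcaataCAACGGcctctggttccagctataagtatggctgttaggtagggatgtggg
Prtn3, chr10:79879517-79879666, plus strand: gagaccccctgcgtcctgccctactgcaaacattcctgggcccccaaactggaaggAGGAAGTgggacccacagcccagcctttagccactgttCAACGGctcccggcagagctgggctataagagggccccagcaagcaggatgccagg
Ltf, chr9:111019142-111019291, plus strand: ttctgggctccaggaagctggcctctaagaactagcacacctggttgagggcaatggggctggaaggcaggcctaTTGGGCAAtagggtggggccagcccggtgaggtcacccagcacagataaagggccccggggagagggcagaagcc
Ngp, chr9:110419658-110419807, plus strand: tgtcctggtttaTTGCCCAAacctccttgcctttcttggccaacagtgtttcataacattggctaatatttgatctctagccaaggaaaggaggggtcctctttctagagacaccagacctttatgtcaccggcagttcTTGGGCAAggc
Chil3, chr3:106167565-106167714, minus strand: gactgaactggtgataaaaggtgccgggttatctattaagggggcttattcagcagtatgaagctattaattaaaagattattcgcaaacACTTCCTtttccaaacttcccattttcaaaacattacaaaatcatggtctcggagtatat

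AGGAAGT was present in the promoters of all 3 early genes, Mpo, Elane and Prtn3, and on the opposite strand in that of Chil3. Among all 32851 promoters searched, 7.69% held it. Elane and Prtn3, which are neighbours on chromosome 10, also shared CAACGG, at 51 to 46 bases before the start of Elane and at 56 to 51 bases before that of Prtn3. CAACGG was found in 4.05% of all promoters. TTNNGCAA was present in those of Ltf and Retnlg, and at 2 places in that of Ngp. It was found in 9.56% of all promoters. None of the 3 motifs was found in the windows of Camp and Csf3r. Because the letters were chosen with the sequences in view, these shares are no test of a difference between early and late genes. Near matches, such as one to TTNNGCAA shortly before CAACGG in Elane, were not counted. A match describes letters and is not a measured binding site.

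Signals are the authors' intensities per probe set on a linear scale. Differences are on the scale of log2(signal + 16.3), after each array had been centred on its median, and a difference is called when limma's adjusted p over all 22626 probe sets is under 0.05. On that scale 5.27% of all probe sets were called higher in BPD livers and 10.8% lower. Of the 8 granule genes 3 were called higher, namely Chil3, Ltf and Prtn3, and 0 lower. The other 5 were not called, and among all 8 the unadjusted limma p was under 0.05 in 7, as it was with a higher level in BPD livers for 9.80% of all probe sets. In deposited signal the BPD livers all lay above the GFP livers for 8 of 8 genes, which was the case for 22.0% of all probe sets. After centring, the groups stayed apart for 5 of 8 genes, against 10.5% of all probe sets with BPD livers above, and overlapped for Mpo, Elane and Camp. The median difference over the 8 genes was 1.54, beside -0.22 over all probe sets. In deposited signal the liver of BPD mouse 28 was the highest in 8 of 8 genes, and BPD mouse 36 was the lowest of the BPD livers in 7. The shares of all probe sets with these orders were not counted, and the array of mouse 28 had the highest median signal (196.8). After centring, liver 28 was still the highest for each of these genes.

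**Figure D1:**
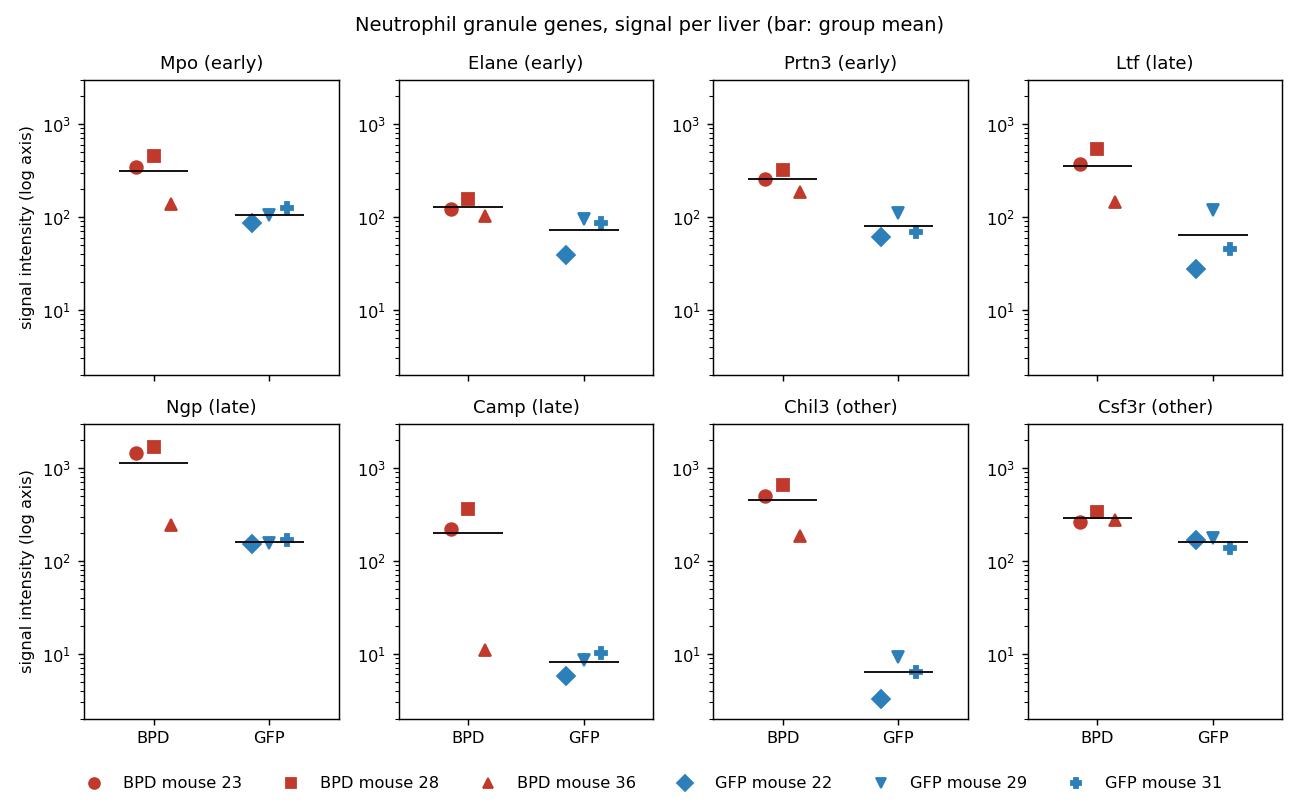
Signal intensity (log axis) of each granule gene in each liver, with BPD on the left and GFP on the right of each panel, 1 symbol per mouse and a bar at the group mean (n = 3 each). BPD mouse 36 lies close to the GFP livers for Ngp (245) and Camp (11.0) but far above them for Chil3 (187).

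Mpo encodes myeloperoxidase, which makes hypochlorous acid and is the best known product of the azurophil granule. Its signal was 343, 458 and 137 in BPD livers 23, 28 and 36, against 86.0, 105 and 124 in GFP livers 22, 29 and 31. Livers 23 and 28 stood clear of the controls, while liver 36 was 1.11 times the highest of them. The log2 difference was 1.0 ± 0.37 (SE) and was not called (limma adjusted p = 0.0976).

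Elane encodes neutrophil elastase, a serine protease of the same granule. Its signal was 121, 157 and 102 in BPD livers, against 39.3, 94.3 and 85.2 in GFP livers. Here too BPD and GFP livers did not overlap in deposited signal, but the gap between BPD liver 36 and GFP liver 29 was small. In this fit Elane had the smallest difference of the 8 genes, 0.42 ± 0.28 (limma adjusted p = 0.326).

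Prtn3 encodes proteinase 3, a serine protease related to elastase. Its signal was 255, 319 and 186 in BPD livers, against 60.6, 111 and 69 in GFP livers. All BPD livers, liver 36 included, lay at least 1.68 times above the highest GFP liver. The rise of 1.19 ± 0.25 was called (limma adjusted p = 0.0149). It was no longer called when 1 of 3 mice was left out. The value was 1.07 with BPD 28 left out, 1.14 with BPD 23 left out and 1.09 with GFP 22 left out (limma adjusted p = 0.0774, 0.0507 and 0.0501).

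Among the late genes, Ltf encodes lactoferrin, an iron-binding protein of specific granules. Its signal was 375, 539 and 145 in BPD livers, against 27.7, 120 and 44.9 in GFP livers. The controls themselves varied widely, and GFP liver 29 came near BPD liver 36. The rise of 1.89 ± 0.49 was called (limma adjusted p = 0.0325). That call was lost when 1 of 4 mice (BPD 23 or 28, GFP 22 or 31) was left out, with limma adjusted p from 0.0895 to 0.128, and with the Gapdh ratio as a covariate, at 0.0658.

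Ngp encodes neutrophilic granule protein, a relative of the cathelicidins. Its signal was 1467, 1697 and 245 in BPD livers, against 152, 157 and 167 in GFP livers. The 3 controls were nearly equal, livers 23 and 28 were 8.78 and 10.2 times the highest of them, and liver 36 was 1.47 times as high. The difference of 2.02 ± 0.60 just missed the threshold (limma adjusted p = 0.0522). It was 2.87 without BPD mouse 36 (limma adjusted p = 2.2e-04) and between 1.58 and 2.06 without any other mouse, and it was called in 6 of its 16 alternative fits.

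Camp encodes the mouse cathelicidin, whose cleaved end is an antimicrobial peptide. Its signal was 221, 359 and 11.0 in BPD livers, against 5.69, 8.61 and 10.2 in GFP livers. Liver 36 was thus at the level of the controls, and all these 4 signals lay below the added constant, where they carry little information. The difference of 2.16 ± 0.81 was not called (limma adjusted p = 0.101). Its size depends on the constant and on liver 36. It was 2.83 with a constant of 4.07, 1.28 with one of 65.1, and 3.29 without BPD mouse 36 (limma adjusted p = 7.8e-04).

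Chil3, also known as Ym1, encodes a chitinase-like lectin made by neutrophil precursors and by some activated macrophages. Its signal was 505, 653 and 187 in BPD livers, against 3.26, 9.29 and 6.39 in GFP livers. All 3 controls lay below the added constant, whereas all 3 BPD livers, liver 36 included, lay well above it. The rise of 3.90 ± 0.40 had a limma adjusted p of 0.0013, and 99.96% of all probe sets had a smaller difference. It was called in all 15 alternative fits that contained it, with differences from 2.48 to 4.99. A further probe set, annotated with both Chil3 and its neighbour Chil4 and so not counted, had signals of 363, 418 and 180 in BPD livers, against 53.5, 56.2 and 64.6 in GFP livers, a rise of 1.80 ± 0.30 (limma adjusted p = 0.0063).

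Csf3r encodes the receptor of granulocyte colony-stimulating factor, G-CSF, the cytokine that drives granulocyte production. Its signal was 260, 334 and 274 in BPD livers, against 166, 177 and 136 in GFP livers. It was the only one of the 8 genes in which liver 36 was not the lowest BPD liver. The difference was small, 0.49 ± 0.18, and was not called (limma adjusted p = 0.0964). With the deposited scaling it was 0.79 and was called (limma adjusted p = 0.0282).

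**Figure D2:**
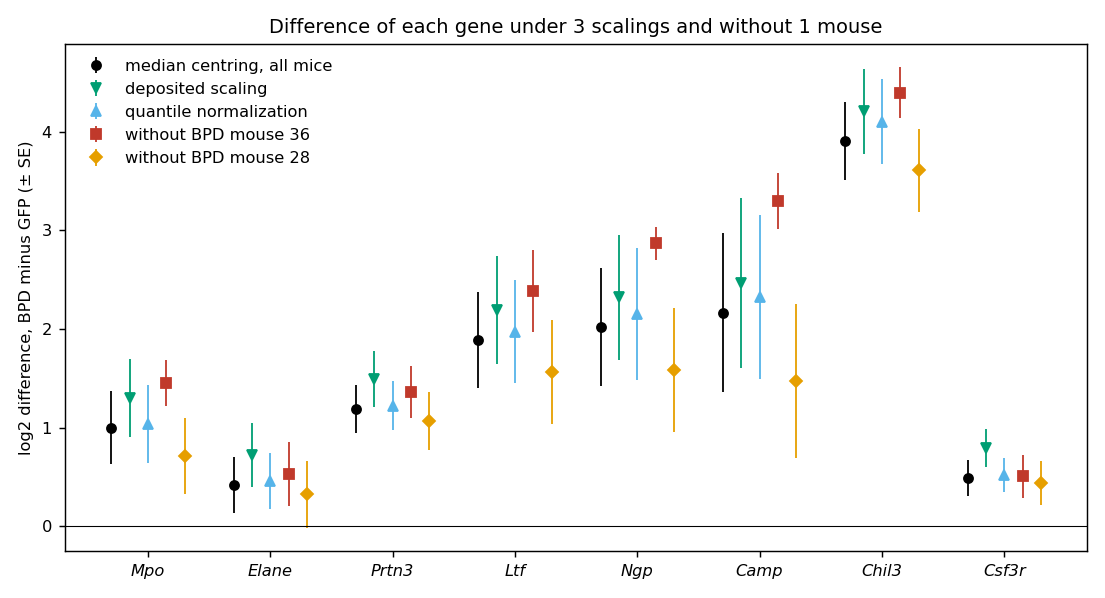
Log2 difference, BPD minus GFP (± SE), of each granule gene under 3 scalings between arrays, and after median centring without BPD mouse 36 or BPD mouse 28. All values are above 0, and leaving out mouse 36 moves Camp (to 3.29) and Ngp (to 2.87) most.

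In these 6 livers the 3 late genes with a probe set had larger differences than the 3 early ones. The log2 difference was 1.89, 2.02 and 2.16 for Ltf, Ngp and Camp, and 1.0, 0.42 and 1.19 for Mpo, Elane and Prtn3. Averaged by class, the late genes were 2.02 and the early genes 0.87 higher in BPD livers, so that late minus early was 1.15. This contrast was formed over chosen genes and has no test, and the added constant makes the differences of dim genes such as Camp smaller. Because it subtracts one class from the other within each array, it is the same under median centring and the deposited scaling. It covers these genes only. Among further granule genes, described below, the medians lay closer together. They were 0.90 for 6 azurophil genes and 1.06 for 12 genes of specific and gelatinase granules.

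The contrast rested on BPD livers 23 and 28. Each gene's deviation from its own mean over the 6 livers was averaged within the class. In BPD livers 23, 28 and 36 this late deviation was 1.69, 1.98 and -0.63, against -1.23, -0.80 and -1.01 in GFP livers 22, 29 and 31. The early deviation was 0.59, 0.77 and -0.05 in BPD livers, against -0.73, -0.27 and -0.31 in GFP livers. Subtracting early from late gave 1.10 for BPD liver 23, 1.21 for BPD liver 28 and -0.58 for BPD liver 36, the last of which lay among the GFP values of -0.50, -0.54 and -0.70. The SD of late minus early was 1.0 over the BPD livers and 0.11 over the GFP livers. Over the groups, late minus early was 1.73 without BPD mouse 36, 0.84 without BPD mouse 28 and 0.89 without BPD mouse 23. Leaving out BPD mouse 36 gave calls for 6 of the 8 genes, all but Elane and Csf3r, beside 5.84% of all probe sets called higher. The count was 1, Chil3, when BPD mouse 23, BPD mouse 28 or GFP mouse 22 was dropped, beside 3.13%, 2.26% and 3.99% of all probe sets. It was 3 when GFP mouse 29 was dropped (4.50%) and 2, Chil3 and Prtn3, for GFP mouse 31 (3.41%). The deposited scaling called 5 of 8 (9.98% of all probe sets) and quantile normalization 3 (7.26%). The brightness filter called 3 of the 5 genes that passed it (8.28%). Prtn3 and Ltf passed it only through their BPD livers, since their GFP means (80.1 and 64.2) lay below its level, a signal of about 98.8. This count is therefore not independent of the difference between the groups. The count was 3 with a constant of 4.07 (5.14%) and in a fit lacking the intensity trend (4.68%). It was 4 with a constant of 65.1 (5.83%), robust eBayes (5.46%) and array weights (5.85%).

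**Figure D3:**
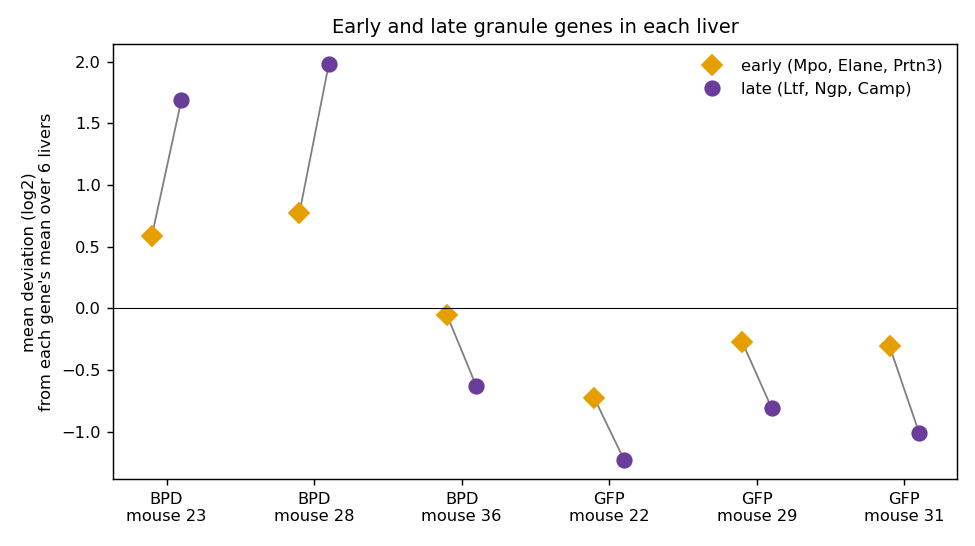
Mean log2 deviation of the 3 early genes (diamonds) and the 3 late genes (circles) from each gene's mean over 6 livers, for each BPD liver on the left and each GFP liver on the right. The late value lies above the early one in BPD livers 23 (1.69 and 0.59) and 28 (1.98 and 0.77), and below it in BPD liver 36 (-0.63 and -0.05) as in all 3 GFP livers.

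Other granule genes were called in part. Of 6 further azurophil granule genes with a probe set, 2 were called higher and 0 lower, with a median difference of 0.90. They were Srgn (1.53 ± 0.34), the proteoglycan that packs granule proteases, and Ctsc (1.56 ± 0.37), the protease that activates elastase and proteinase 3. Both are also expressed outside neutrophils, and neither passed when BPD mouse 23 or BPD mouse 28 was left out or with the Gapdh covariate. Ctsc also did not pass when GFP mouse 22 was left out. Ctsg, the serine protease cathepsin G, had signals of 67.9, 121 and 4.86 in BPD livers, against 4.57, 5.95 and 4.31 in GFP livers. Liver 36 was again at the level of the controls, as for Camp, although Ctsg belongs with the early genes (1.26 ± 0.56, limma adjusted p = 0.159). The signals of liver 36 and of the controls, 4 in all, lay below the added constant, where they carry little information. Ms4a3 (-0.26 ± 0.23), Serpinb1a (0.39 ± 0.34) and Cst7 (0.55 ± 0.37) were not called either.

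Of 12 further genes of specific and gelatinase granules, 5 were called higher and 0 lower, with a median of 1.06. The 4 with the smallest p were Lyz2, encoding lysozyme (2.42 ± 0.43), Adam8 (1.37 ± 0.25), Cyba, a subunit of the phagocyte oxidase (2.06 ± 0.39), and Lcn2, encoding lipocalin-2 (2.25 ± 0.45). Lyz2 and Cyba are also macrophage genes, and hepatocytes make Lcn2 too. Of the 7 not called, Pglyrp1 (1.18), Cybb (0.94), Chil1 (0.49) and Mmp8 (0.45) were positive. Mmp9 (-0.12), Padi4 (-0.47) and Hp (-0.53) were negative, and Padi4 lay below the added constant in all livers. The number called higher was 2 without BPD mouse 28, a fit that called 2.26% of all probe sets higher. Of 9 other neutrophil genes, 4 were called higher and 0 lower, with a median of 0.41. The calprotectin subunits S100a8 and S100a9 rose by 3.91 ± 0.53 and 3.86 ± 0.63 (limma adjusted p = 0.0029 and 0.0062). S100a8 had signals of 2661, 3162 and 648 in BPD livers, against 66.9, 134.5 and 55.2 in GFP livers, so that liver 36 was the lowest BPD liver but 4.82 times the highest control. Itgb2, the shared beta chain of leukocyte integrins (2.08 ± 0.40), and the formyl peptide receptor Fpr2 (0.89 ± 0.26) also rose. The number called among these 9 was 2 without BPD mouse 28 (2.26% of all probe sets). The chemokine receptor Cxcr2, typical of mature neutrophils, had a difference of -0.58 ± 0.39 and was not called.

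Transcription factors of the granulocyte lineage moved in both directions. Of 9 with a probe set, 3 were called higher and 1 lower. Myb, a factor of dividing progenitors, rose by 1.68 ± 0.28, Spi1, encoding PU.1, by 1.22 ± 0.24, and Irf8, which favours monocytes over granulocytes, by 0.91 ± 0.24. Cebpa, needed for promyelocytes but abundant in hepatocytes, fell by 1.04 ± 0.30 and was not called under the deposited scaling (-0.73), quantile normalization (-0.57), or with 1 mouse left out other than BPD 36. The factor Gfi1 was dim, with signals of 31.5, 18.9 and 17.7 in BPD livers, against 9.82, 0.946 and 1.17 in GFP livers, and was not called (0.65 ± 0.28). The number of factors called higher was 1 without BPD mouse 28 (2.26% of all probe sets) and 5 with the deposited scaling (9.98%).

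Ligands of these cells were called about as rarely as probe sets at large. Among all probe sets 5.27% were called higher and 10.8% lower. Counts of 0 or 1 in the gene lists of this paragraph are therefore near the background. Of 12 growth factors and chemokines 1 was called higher and 1 lower, with a median of -0.08. The neutrophil chemokine Cxcl2 rose by 1.18 ± 0.32 (limma adjusted p = 0.0402), with signals of 110, 218 and 75.4 in BPD livers, against 26.8, 39.5 and 35.8 in GFP livers. The growth factor gene Csf2 fell by 1.04 ± 0.30 at signals mostly below or near the added constant. Of the fits with 1 mouse left out, only that lacking BPD 36 called Cxcl2 and 0 called Csf2. Cxcl2 was not called with the Gapdh covariate either, nor Csf2 under the deposited scaling. Csf3, encoding G-CSF itself, had signals of 13.4, 17.6 and 19.8 in BPD livers, against 18.6, 23.6 and 12.9 in GFP livers, and was not called (-0.36 ± 0.21). Of 10 genes of G-CSF receptor signalling, 1 was called higher, the feedback inhibitor Socs3 (1.35 ± 0.25), and 0 lower. The Socs3 probe set used ends in _x_at, so that it can match other transcripts, as can those used for Myb (_x_at) and S100a8 (_s_at). The other Socs3 probe sets had differences of 0.54 ± 0.39 and 0.50 ± 0.21 and were not called. Of the other Myb probe sets 1 was called (2.00 ± 0.24) and 1 was not (0.62 ± 0.24), and S100a8 had no other. The genes of alternative macrophage activation, a state in which macrophages make Chil3, were tested beside it. Of 10 genes 0 were called higher and 1 lower, Arg1 (-0.87 ± 0.18), an enzyme that hepatocytes hold in quantity. The median difference was 0.07, above that of all probe sets. Besides Arg1, Clec10a had an unadjusted limma p under 0.05, with a positive difference (0.88 ± 0.38). Mrc1 (0.66 ± 0.43) and Ccl24 (0.73 ± 0.53) were also positive, Retnla was at -0.06 ± 0.30 and Cd163 at -1.26 ± 0.68, and 0 of these 5 were called. Ccl24 was called when BPD mouse 36 was left out (1.39).

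**Figure D4:**
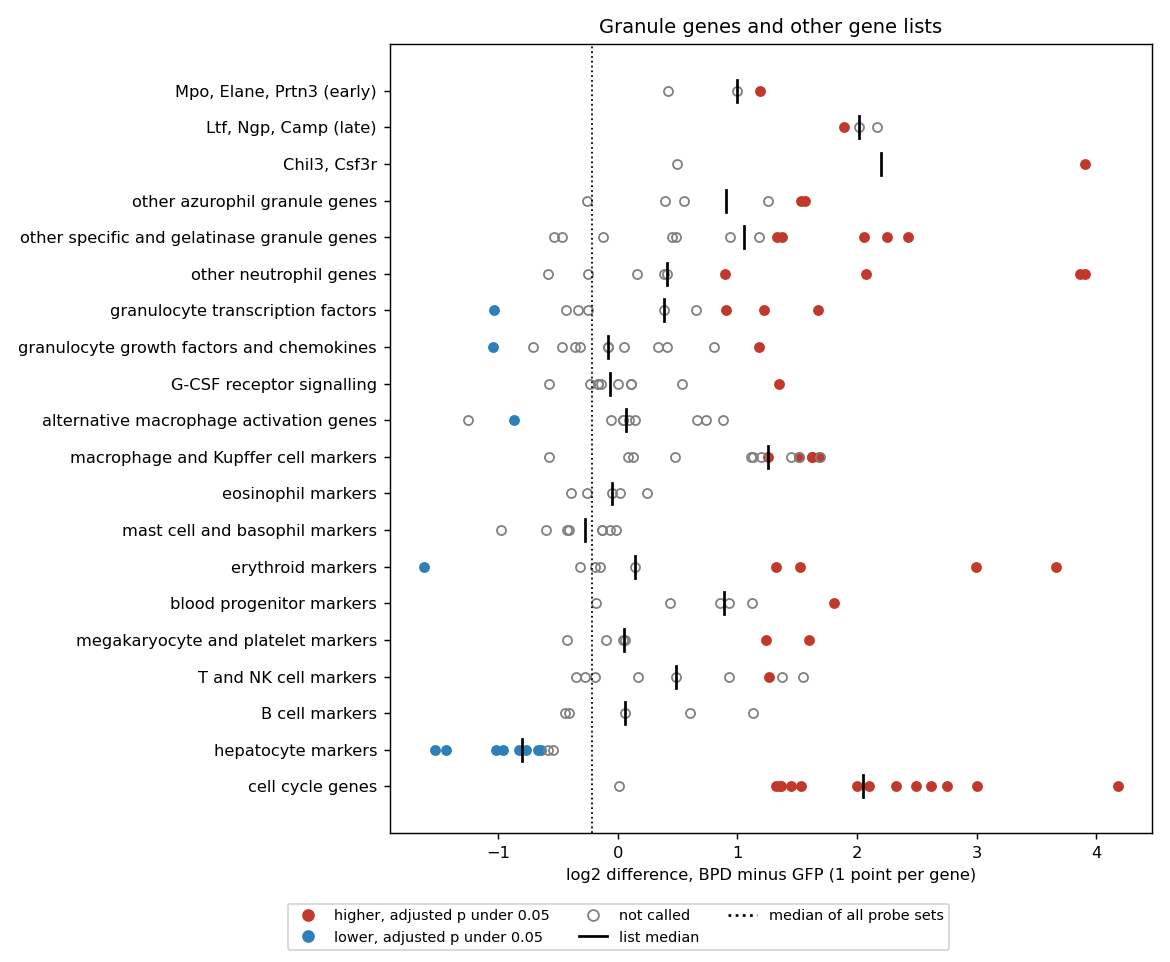
Log2 difference, BPD minus GFP, of every gene with a probe set in the 8 granule genes and in the other lists (1 point per gene, filled where the limma adjusted p is under 0.05). Short bars are list medians, and the dotted line marks the median of all probe sets (-0.22). No eosinophil or mast cell marker is filled, and the 3 late granule genes have a median of 2.02.

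Markers of other blood cells moved with the granule genes in part. Of 15 macrophage and Kupffer cell markers 5 were called higher and 0 lower, with a median of 1.26, and their summed signal was 18642 to 39143 in BPD livers, against 5277 to 17805 in GFP livers. Of these sums the one of liver 36 was again the lowest in the BPD group. With 1 mouse left out the number called was 1 (BPD 28), 3 (BPD 23, GFP 22 or GFP 31), 8 (BPD 36) or 10 (GFP 29). The share of all probe sets called higher also moved. It was 2.26% (BPD 28), 3.13% (BPD 23), 3.99% (GFP 22), 3.41% (GFP 31), 5.84% (BPD 36) and 4.50% (GFP 29). Of 9 erythroid markers 4 were called higher, led by Hemgn (3.66 ± 0.32), and 1 lower, Alas2, with a median of 0.14 over all 9. Their signals did not set liver 36 apart in the same way, since Hemgn had 386, 455 and 563 in BPD livers 23, 28 and 36, against 13.4, 5.37 and 28.6 in GFP livers. Of 6 blood progenitor markers 1 was called higher, the factor Meis1 (1.81 ± 0.24), with summed signals of 642 to 1036 in BPD livers, against 253 to 409 in GFP livers. Their median difference was 0.89, and 4 had an unadjusted limma p under 0.05. Besides Meis1 these were Tal1 (0.93 ± 0.30), Cd34 (1.13 ± 0.40) and Kit (0.85 ± 0.35), whereas Flt3 was at -0.18 ± 0.63. Of 6 megakaryocyte and platelet markers 2 were called higher, the chemokines Ppbp (1.59 ± 0.26) and Pf4 (1.24 ± 0.30). Only the fit lacking BPD 36, among those with 1 mouse left out, called both. The other 4 were not called, namely Itga2b (0.06), Gp9 (-0.10), Gp1bb (-0.43) and Gp5 (0.05), and the list median was 0.05. Of 14 cell cycle genes 13 were called higher and 0 lower, with summed signals of 11431 to 14518 in BPD livers, against 2149 to 2995 in GFP livers. Liver 36, at 12778, lay within the BPD range of these sums, but single genes differed. It was the lowest BPD liver for Mki67, Top2a, Cdk1 and Mcm7, and the highest for Mcm2, Mcm3, Mcm5 and Pcna. Mki67 had 1111, 963 and 741 in BPD livers 23, 28 and 36, and Pcna had 2300, 3775 and 3833. The part of any of these cells or of cell division in the granule gene differences was not tested.

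Of 5 eosinophil markers and of 8 markers of mast cells and basophils 0 were called by limma, and 0 had an unadjusted p under 0.05. With 5.27% of all probe sets called higher, a count of 0 in lists this short is near the background. The median signal was below the added constant for 3 of the 5 eosinophil markers and for 1 of the 8 others, where signals carry little information. Summed eosinophil signals were 65.4 to 132 in BPD livers, against 44.9 to 119 in GFP livers. Those of mast cells and basophils were 372 to 525 in BPD livers, against 331 to 522 in GFP livers. The eosinophil granule gene Prg2 had signals of 2.34, 15.4 and 26.6 in BPD livers, against 16.9, 19.4 and 9.59 in GFP livers, of which 3 lay below the added constant. Of 9 T and NK cell markers 1 was called higher, Cd3e (1.26 ± 0.24), and 4 had an unadjusted limma p under 0.05, all with positive differences. The other 3 were Cd3g (0.93 ± 0.29), Cd3d (1.55 ± 0.49) and Nkg7 (1.37 ± 0.49). Among the rest, Cd2 (0.49) and Cd8a (0.17) were positive, and Cd4 (-0.27), Ncr1 (-0.19) and Gzma (-0.35) were negative. The median of this list was 0.49. When GFP mouse 29 was left out, 3 markers were called, beside 4.50% of all probe sets called higher. Of 5 B cell markers 0 were called, and 1 had an unadjusted limma p under 0.05. Of 10 hepatocyte markers, such as Hpd (-1.53 ± 0.17), 8 were called lower and 0 higher, and their summed signal was 108836 to 117739 in BPD livers, against 161503 to 172318 in GFP livers.

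The genes whose differences between mice of one group followed those of the late granule genes most closely were sought among 387 genes. These varied enough within groups, were neither members nor clone names, and had a mean above the 40th percentile of all probe sets. Dimmer genes, such as Ctsg, were therefore not candidates. The measure was Pearson's r over the 6 arrays, computed on deviations from group means, so that it rests mainly on liver 36 against livers 23 and 28 and is a description only. The 5 highest were Meg3 (r = 0.996), a long non-coding RNA, the collagen chains Col3a1 (0.991) and Col1a1 (0.969), Des (0.963), encoding desmin, and Ccnd1 (0.962), encoding cyclin D1. The GFP means of Col1a1 (17.6), Col3a1 (52.0) and Des (90.9) lay below the filter level, a signal of about 98.8. These genes therefore became candidates only through their BPD livers. Col1a1 had signals of 779, 821 and 99.6 in BPD livers, against 16.2, 27.9 and 8.84 in GFP livers. Des had 175, 420 and 28.7 in BPD livers, against 82.2, 121 and 69.5 in GFP livers, so that liver 36 lay below all controls.

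Liver 36 lay inside the range of the other arrays in the array measures. Median signals were 174 to 196.8 on BPD arrays, against 135.2 to 157 on GFP arrays, a 1.46-fold range over all 6. The ratio of 3′ to 5′ signal of the Gapdh control probe sets, a check of RNA integrity, was 0.735 to 0.863 in BPD livers (0.745 in liver 36), against 0.785 to 0.900 in GFP livers. With that ratio as a covariate the differences of the 8 genes were 0.41 for Csf3r to 4.02 for Chil3, and 2 of 8 were called, Chil3 and Prtn3, beside 3.76% of all probe sets called higher.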

How the data were processed

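Liver RNA of 3 BPD and 3 GFP mice was measured on 6 one-colour arrays, 1 mouse each. The deposited values are intensities per probe set on a linear scale, made with MAS5 per the submitters' processing notes. The sources used here name neither its version nor its target. The mean of each array after trimming 2% at each end was 499.9, so the arrays had been scaled to a common mean. The table has 22690 probe sets, of which 64 controls were left out, and 0 columns were unused. Of the rest, 20380 have 1 gene symbol, 691 several and 1555 none in the platform annotation.

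Values were analysed as log2(signal + 16.3), the constant being 10% of the median of all values, and centred on each array's median. All 22626 probe sets were fitted with R 4.3.3 and its package limma 3.58.1 (eBayes with an intensity trend, 2-sided, 4 residual and 4.60 prior degrees of freedom), with Benjamini-Hochberg adjustment over all of them. No brightness filter was used in this fit, because a dim gene could pass it through the group where it is high. A filter at the 40th percentile, which 5 of the 8 granule probe sets passed (not Elane, Camp and Chil3), was an alternative. The same filter limited the search for genes most like the late genes. Errors of differences are SE of that fit. The number of arrays limits the precision. A gene of a list stands for its probe set with the highest mean. The fit was also run on simulated arrays with independent errors, as a check of the code. No conclusion about these livers is drawn from that run.

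The members, gene lists and tests were chosen with earlier results of these data known. Named are all members, up to 4 genes with the smallest p from each list, defining markers, and the 5 genes most like the late genes. Retnla, Ccl24, Cxcr2, Ctsg, Gfi1, Csf3 and Prg2, and the other probe sets of Socs3 and Myb, were singled out for their role or after their values were seen. Uncalled members of the granule, platelet and T and NK cell lists were also named after their values were seen. So were the cell cycle genes described by liver. Groups come from the sample titles. Nothing says that mice share a batch or litter, and scan dates were not used here.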

Additional observations from a re-analysis of the deposited data

How the results depend on the processing

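All 8 granule genes kept a positive difference in every one of the 16 alternative fits that contained them. Late minus early ranged from 0.84 to 1.73 with 1 mouse left out and stayed between 0.85 and 1.38 under the other settings. The number of granule genes called higher was 3, ranged from 1 to 6 with 1 mouse left out, and was 5 under the deposited scaling, which added Ngp and Csf3r. It was 2 to 4 under the other settings, and 0 were called lower in any of the fits run. Among all probe sets 1193 were called higher and 2443 lower. These counts ranged from 512 to 1321 and from 908 to 2400 with 1 mouse left out. The deposited scaling gave 2257 higher and 1134 lower, quantile normalization 1642 higher and 1361 lower, and the Gapdh covariate 851 higher and 1540 lower. The median of all probe sets was -0.22 after centring, 0.08 under the deposited scaling and -0.06 after quantile normalization. For the single genes of all lists, 63 calls were gained and 117 lost over all alternatives, with 0 reversed, and the causes were not tested. Signals below the added constant, as for Camp and Chil3 in GFP livers, leave the size of a rise uncertain. No paired analysis was possible because the mouse numbers are not shared between the groups.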
